A study of Mus musculus with 9 samples.

Results

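Neurons answer synaptic activity by switching on a set of genes, and 10 of these genes, most of whose products act at synapses or are secreted, were followed here in mouse hippocampus. They are Arc, Homer1, Plk2, Bdnf, Nptx2, Inhba, Vgf, Scg2, Ptgs2 and Dusp1. They were chosen by name, as activity-induced genes that do not encode transcription factors, and each symbol had 1 row among the 54532 genes of the count table. All 10 passed the filter on low counts, which left 19782 genes to test.

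RNA-seq was performed on 9 hippocampi, 5 from mice given Ant-134 and 4 from mice given Scr. Ant-134 is a locked nucleic acid inhibitor that pairs with miR-134, and Scr is its scrambled control. All mice were N4 Ube3am-/p+, a model of Angelman syndrome in which the maternal copy of Ube3a is mutated. The comparison asks how the hippocampal transcriptome of these mice differs after miR-134 inhibition and repeated seizures. The line came from B6.129S7-Ube3atm1alb/J mice and had been crossed for 4 generations to 129Sv/Ev, which makes it susceptible to seizures evoked by sound. Each mouse received 0.5 nmol of its oligonucleotide into the ventricle at postnatal day 21 (P21) and was exposed to a seizure-evoking sound at P22, P24 and P26. Tissue from 1 ipsilateral hippocampus per mouse was taken 24 h after the last exposure, from saline-perfused animals. No wild-type, untreated or seizure-free libraries were part of the comparison, the sexes were not recorded for molecular samples, and the labels do not give the seizure score of each sequenced mouse. Effects of the oligonucleotide and of a difference in seizures therefore cannot be told apart.

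Activity-induced genes are transcribed when calcium entering an active neuron drives kinases that act on CREB, SRF and MEF2 at promoters and enhancers. The first wave encodes transcription factors such as Fos, Egr1 and Npas4 together with effector genes that change the synapse directly. In the hippocampus, seizures are among the strongest known inducers of these genes, and much of the induced mRNA is short-lived. The effectors include proteins of the postsynapse, secreted factors and peptide precursors, an enzyme of prostaglandin synthesis and a phosphatase that ends kinase signalling.

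The libraries held between 28583298 and 41978113 counts on genes, and the members had between 181 counts (Inhba) and 10594 counts (Vgf) in a library. Marker genes were summed to check the labelled tissue, and no marker of any list was at 0 in any library, so presence alone does not identify it. Over the 9 libraries the sums were 292 to 362 CPM for dentate granule cells, 705 to 847 CPM for CA1 and 1112 to 1289 CPM for CA3 pyramidal cells, and 156 to 200.2 CPM for the neighbouring thalamus. Choroid plexus markers ranged from 68.3 to 2588 CPM in Ant-134 and from 80.1 to 2035 CPM in Scr. Within a gene, levels are compared in CPM (counts relative to the TMM-normalized library total). The study called genes with DESeq2 at an unadjusted p below 0.05. Here a gene was called when edgeR's quasi-likelihood test gave an unadjusted p below the same 0.05. By this rule 827 genes were called, 4.18% of those tested, with 294 (1.49%) higher and 533 (2.69%) lower in Ant-134. For the members, Fos, Dusp6, Rasl11b and Nr4a2, the p of a two-sided exact permutation test on log2 CPM stands beside the fitted change. This p cannot go below 0.00794 with 5 and 4 mice. After Benjamini-Hochberg adjustment the same edgeR test called 0 genes (0%), with a smallest adjusted p of 0.0900, whereas DESeq2 called 16 after adjustment and 1027 without it.

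None of the 10 members was called in the edgeR test, 0 of 10 against a background of 4.18%, and 0 of 10 had groups that did not overlap in CPM against a background of 1.54%. DESeq2, the tool of the study, called 1 member without adjustment, Ptgs2, and 0 after adjustment. Without adjustment it called 1027 of the 37435 genes with a DESeq2 p. The study also lists Ptgs2 among its upregulated genes. The fitted log2 fold change of Ant-134 against Scr was above 0 for 9 of 10 members, with a median of 0.057, and lay between -0.055 for Nptx2 and 0.25 for Arc. Across all genes tested the median was 0.0026 and 51.2% were above 0. Without Scr replicate 1 the number of members above 0 was 6. The adjusted p from edgeR with Benjamini-Hochberg adjustment was 0.998 for 9 members and 1.000 for Vgf.

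**Figure D1:**
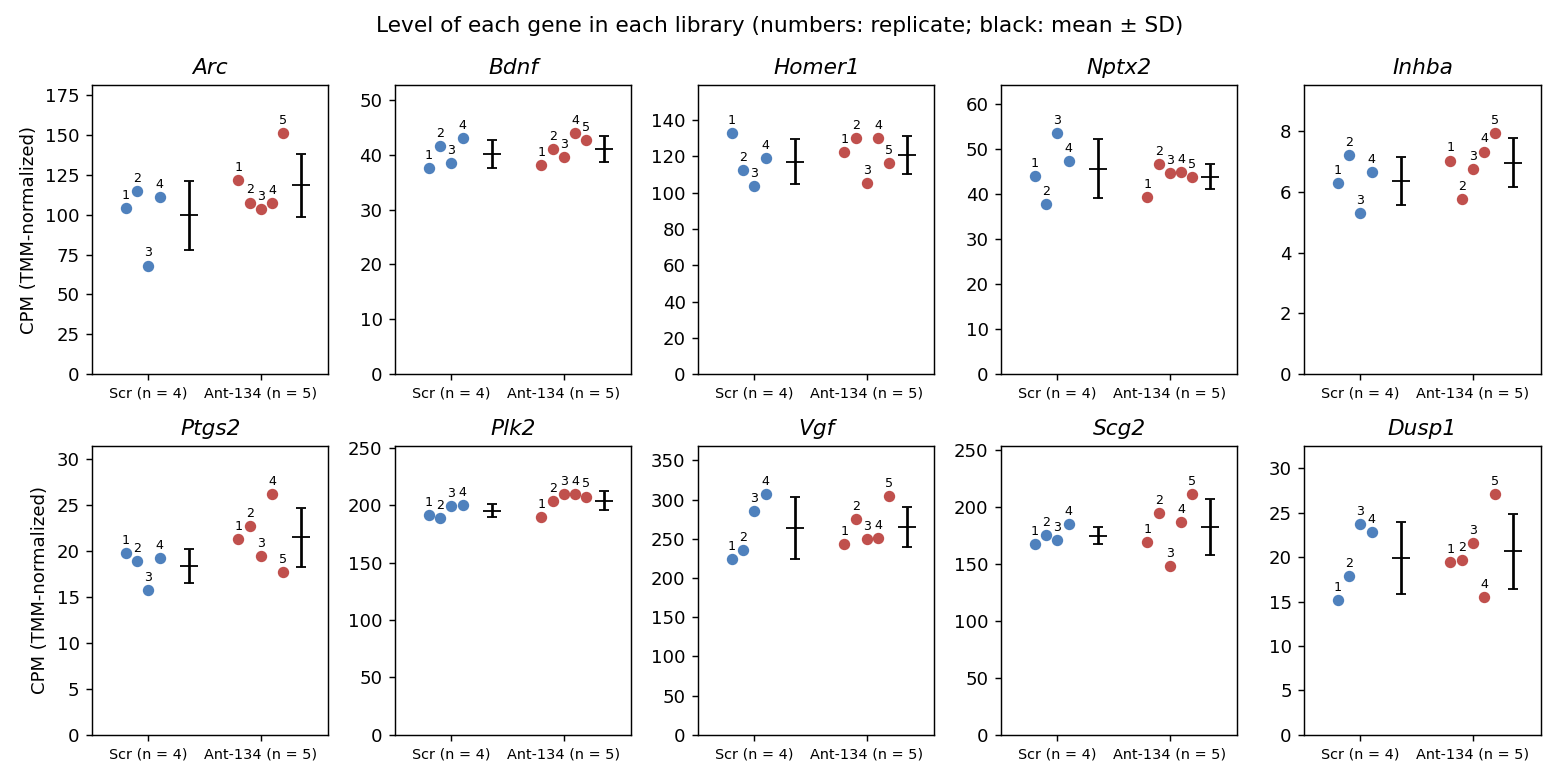
CPM of each of the 10 genes (y axis, from 0, TMM-normalized) in the 4 Scr libraries (blue) and the 5 Ant-134 libraries (red), with replicate numbers beside the points and the mean ± SD of each group in black. The ranges of the 2 groups overlap in every panel, and Scr replicate 3 stands below the other libraries for Arc at 68.1 CPM.

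Of the genes that act in the postsynapse, Arc encodes a protein that promotes removal of AMPA-type glutamate receptors from the synaptic surface (ENSMUSG00000022602, chr15:74669083-74672570 of GRCm38, minus strand). Arc was at 122, 108, 104, 107 and 151 CPM in Ant-134 replicates 1 to 5 and at 104, 115, 68.1 and 111 CPM in Scr replicates 1 to 4. Only Ant-134 replicates 1 and 5 exceeded the highest Scr library, and the lowest value of all was that of Scr replicate 3. Group means were 118 ± 19.6 CPM (SD, n = 5) and 99.5 ± 21.4 CPM (SD, n = 4). The log2 fold change of 0.25 (SE 0.18, 95% confidence interval -0.17 to 0.67, exact permutation p = 0.278) was the highest of the 10 members, and its interval was also the widest together with that of Dusp1. It was 0.11 without Scr replicate 3 and 0.15 without Ant-134 replicate 5, so these 2 libraries set much of its size.

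Homer1 encodes a scaffold that ties group I metabotropic glutamate receptors to Shank proteins, and its short, activity-induced form uncouples that link (ENSMUSG00000007617, chr13:93299635-93405129, plus strand). The counts sum all forms of the gene, so the short form could not be read separately. Homer1 stood at 122, 130.1, 105, 130.3 and 116 CPM in Ant-134 and at 133, 112, 104 and 119 CPM in Scr. Here every Ant-134 library lay within the Scr range, whose ends were Scr replicates 3 and 1. Between the groups, its log2 fold change was 0.048 (SE 0.076, interval -0.12 to 0.21, exact permutation p = 0.579), and it was -0.0057 without Scr replicate 3.

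Plk2 encodes a polo-like kinase that is induced by prolonged activity and weakens excitatory synapses (ENSMUSG00000021701, chr13:110395046-110400844, plus strand). Its levels were 189.9, 203, 209.8, 209 and 207 CPM in Ant-134 and 192, 189, 199 and 200.2 CPM in Scr. Ant-134 replicates 2 to 5 lay above all Scr libraries, whereas Ant-134 replicate 1 was near the bottom of the Scr range. Means were 204 ± 8.25 (SD, n = 5) and 195 ± 5.56 CPM (SD, n = 4), and the fitted difference was 0.063 on the log2 scale (SE 0.043, interval -0.028 to 0.15, exact permutation p = 0.135). In percent this interval runs from -1.92% to 11.3%, the narrowest of the members.

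Among the secreted proteins, Bdnf encodes brain-derived neurotrophic factor, the ligand of the receptor kinase TrkB (ENSMUSG00000048482, chr2:109674700-109727007, plus strand). Bdnf was measured at 38.2, 41.0, 39.5, 43.9 and 42.6 CPM in Ant-134 and at 37.6, 41.6, 38.4 and 43.0 CPM in Scr. The 2 groups covered almost the same range, with Ant-134 replicate 4 at its top and Scr replicate 1 at its bottom. Its log2 fold change was 0.032 (SE 0.058, interval -0.093 to 0.16, exact permutation p = 0.579), which corresponds to -6.25% to 11.4%. Transcripts from the alternative Bdnf promoters, which differ in their response to activity, were summed in the counts.

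Nptx2 encodes neuronal pentraxin 2, a secreted protein that clusters AMPA receptors, in particular on interneurons (ENSMUSG00000059991, chr5:144545902-144557478, plus strand). It was at 39.3, 46.5, 44.7, 44.8 and 43.8 CPM in Ant-134 and at 43.8, 37.7, 53.4 and 47.2 CPM in Scr. All Ant-134 libraries fell between the lowest Scr library, replicate 2, and the highest, replicate 3. Nptx2 was the one member with a log2 fold change below 0, at -0.055 (SE 0.085, interval -0.24 to 0.13, exact permutation p = 0.690), and the value was 0.032 without Scr replicate 3.

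Inhba encodes the beta A subunit of inhibins and activins, which forms activin A as a dimer (ENSMUSG00000041324, chr13:16011851-16031621, plus strand). This gene had the lowest level of the 10, with 7.04, 5.77, 6.76, 7.34 and 7.94 CPM in Ant-134 and 6.30, 7.21, 5.31 and 6.65 CPM in Scr. Ant-134 replicates 4 and 5 were above the highest Scr library and Ant-134 replicate 2 was below all but Scr replicate 3. Inhba had a log2 fold change of 0.13 (SE 0.12, interval -0.13 to 0.39, exact permutation p = 0.302), which was 0.050 without Scr replicate 3, 0.076 without Ant-134 replicate 5 and 0.19 without Scr replicate 2. Inhba overlaps B230303A05Rik on the opposite strand, which had 273 to 399 counts per library, and since the sources used here do not state whether counting used strand, reads of the shared stretch may be assigned to either gene. The other annotated overlaps, Gm48444 with Inhba, Gm45346 with Bdnf, and Gm47088 and Gm47075 with Homer1, had at most 17 counts in a library.

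Vgf and Scg2 encode granins, acidic proteins that are stored in dense-core vesicles and cut into secreted peptides. Vgf (ENSMUSG00000037428, chr5:137026392-137033351, plus strand) was at 243, 275, 250.3, 251 and 304 CPM in Ant-134 and at 225, 236, 286 and 307 CPM in Scr. Every Ant-134 library of Vgf lay within the Scr range, and the means of 265 ± 25.3 (SD, n = 5) and 263 ± 39.5 CPM (SD, n = 4) gave a log2 fold change of 0.0066 (SE 0.10, interval -0.22 to 0.23, exact permutation p = 0.905). Scg2, the precursor of secretoneurin (ENSMUSG00000050711, chr1:79434669-79440120, minus strand), was at 169.6, 195, 148, 187 and 212 CPM in Ant-134 and at 167, 176, 171 and 185 CPM in Scr. For Scg2 it was the Ant-134 group that enclosed the Scr range, with replicate 3 lowest and replicate 5 highest of all 9 libraries. Scg2 had a log2 fold change of 0.061 (SE 0.086, interval -0.13 to 0.25, exact permutation p = 0.627), and it was 0.0019 without Ant-134 replicate 5.

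Ptgs2 encodes cyclooxygenase-2, which neurons make after activity and which converts arachidonic acid to the precursor of prostaglandins (ENSMUSG00000032487, chr1:150100031-150108227, plus strand). It was at 21.4, 22.7, 19.4, 26.2 and 17.8 CPM in Ant-134 and at 19.8, 18.9, 15.7 and 19.3 CPM in Scr. Ant-134 replicates 1, 2 and 4 exceeded the highest Scr library, replicate 3 lay within the Scr range, and replicate 5 was lower than 3 of the 4 Scr libraries. Mean levels were 21.5 ± 3.24 (SD, n = 5) and 18.4 ± 1.84 CPM (SD, n = 4). Its log2 fold change of 0.22 (SE 0.11, interval -0.0024 to 0.45) had the smallest p of the members in edgeR, 0.0521 before and 0.998 after Benjamini-Hochberg adjustment, and the exact permutation test gave p = 0.143. Ptgs2 was also the one member that single libraries moved across the threshold. The edgeR test called it higher without Ant-134 replicate 5 (log2 fold change 0.28), without Ant-134 replicate 3 (0.26) and without Scr replicate 1 (0.26). Its value was 0.14 without Ant-134 replicate 4 and 0.16 without Scr replicate 3, and it was not called in these fits. Endothelial cells also make this enzyme. A log2 fold change below 0 was seen for 8 of 8 endothelial markers, none of them called, whereas 51.2% of all genes tested were above 0. The summed level of these markers was 174 to 218 CPM in Ant-134 and 190 to 254 CPM in Scr. In bulk tissue, fewer cells of a type and less RNA per cell cannot be told apart.

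Dusp1 encodes a nuclear phosphatase that inactivates MAP kinases and so limits the signal that induced it (ENSMUSG00000024190, chr17:26505590-26508519, minus strand). Its levels were 19.4, 19.7, 21.6, 15.5 and 27.1 CPM in Ant-134 and 15.1, 17.9, 23.8 and 22.8 CPM in Scr. Ant-134 replicate 5 was the highest library and Scr replicate 1 the lowest, with Ant-134 replicate 4 close to the latter. With means of 20.7 ± 4.23 (SD, n = 5) and 19.9 ± 4.10 CPM (SD, n = 4), the log2 fold change was 0.053 (SE 0.18, interval -0.35 to 0.45, exact permutation p = 0.810). It was -0.064 without Ant-134 replicate 5 and 0.15 without Scr replicate 3.

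**Figure D2:**
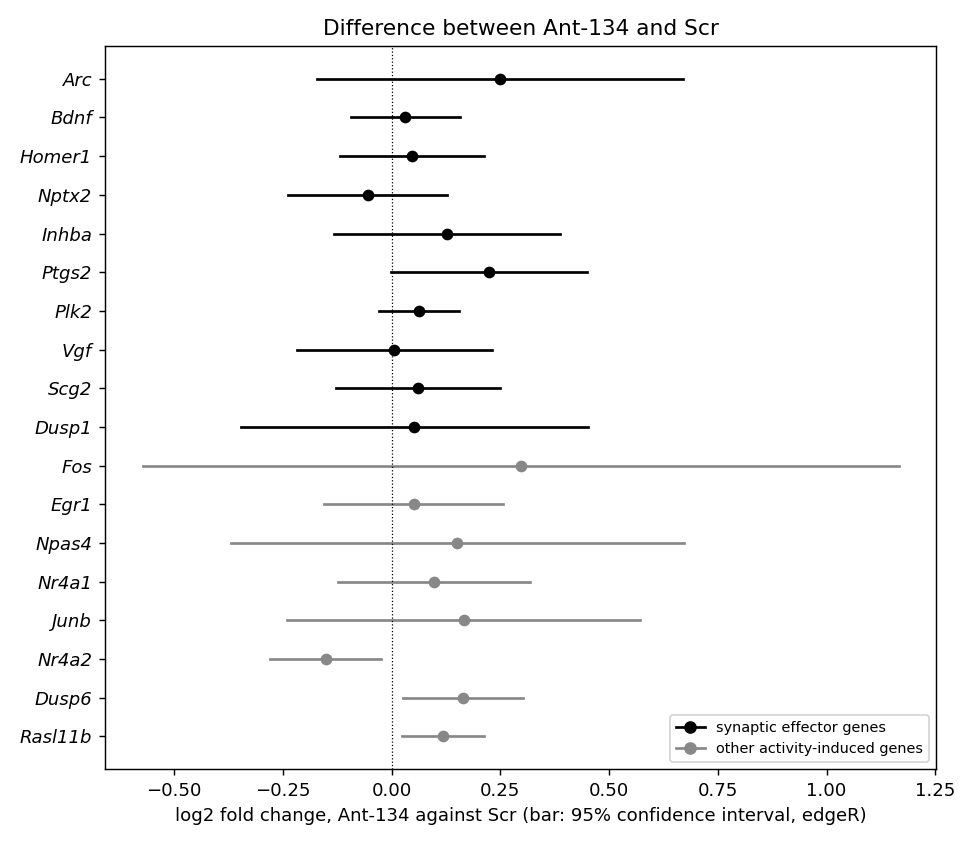
Log2 fold change of Ant-134 against Scr (x axis) with its 95% confidence interval from edgeR for the 10 members (black) and 8 other activity-induced genes (grey). Every black interval crosses 0, with Ptgs2 starting at -0.0024. Those of Nr4a2, Dusp6 and Rasl11b do not, but these are the called genes of the lists described below, so this follows from their selection.

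The intervals differed in width between the members. Their upper ends were 0.15 for Plk2 and 0.16 for Bdnf, but 0.45 for Ptgs2 and Dusp1 and 0.67 for Arc on the log2 scale. At the lower end they were -0.35 for Dusp1, -0.24 for Nptx2 and -0.22 for Vgf. Across all genes tested, the median distance from a fold change to either end of its interval was 0.22.

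Levels were compared between genes per length, as the FPKM values that the authors deposited. Averaged over the 9 libraries, the order was Vgf at 88.0 FPKM, Scg2 at 70.5, Plk2 at 44.1, Arc at 35.6, Nptx2 at 17.4, Homer1 at 9.85, Dusp1 at 7.47, Bdnf at 6.48, Ptgs2 at 4.35 and Inhba at 1.04. The granins were thus the most abundant of the members and the activin subunit the least. Overlapping ranges over the libraries were seen for 4 pairs of neighbours, namely Vgf and Scg2, Plk2 and Arc, Homer1 and Dusp1, and Dusp1 and Bdnf. Within single libraries, Vgf was above Scg2 in 9 of 9, Plk2 above Arc in 8, Homer1 above Dusp1 in 7 and Dusp1 above Bdnf in 6. The deposited tables use a single length per gene, so for Homer1 and Bdnf, with many forms, the level per length depends on which forms are present.

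**Figure D3:**
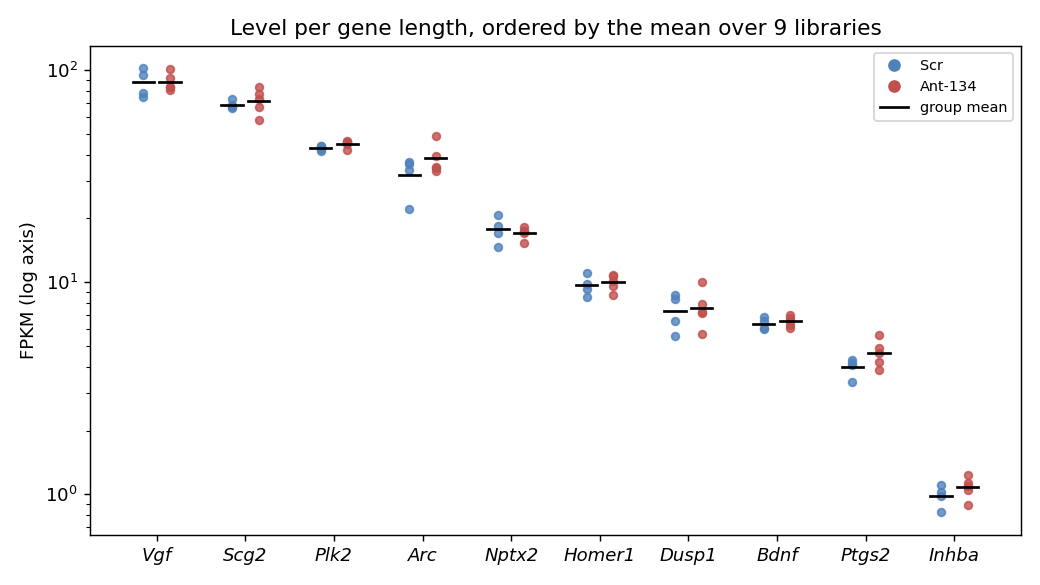
FPKM (y axis, log scale) of the 10 members in order of their mean over 9 libraries, with Scr libraries in blue, Ant-134 libraries in red and group means as black bars. The order runs from Vgf at 88.0 to Inhba at 1.04 FPKM, and Arc shows 1 low library, Scr replicate 3.

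The members differed in how much they varied between mice of a group. The biological coefficient of variation that edgeR estimates within groups was 18.6% for Arc and 18.3% for Dusp1, against a median of 11.4% over all genes tested. These values lay at percentiles 71.2 and 70.4 of all genes tested. Plk2 had the lowest at 6.14%, at percentile 7.98 of all genes tested, and Bdnf followed at 7.22%. Over both groups together, the ratio of the highest to the lowest library was 2.22 for Arc, 1.79 for Dusp1 and 1.67 for Ptgs2. It was 1.11 for Plk2 and 1.17 for Bdnf. The median coefficient over the 10 members was 10.4%.

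Libraries did not take the same place for every member. Ant-134 replicate 5 was the highest of the 9 libraries for Arc, Inhba, Scg2 and Dusp1 and among the highest 3 for 7 members, yet it was the second lowest for Ptgs2. Scr replicate 3 was the lowest for Arc, Homer1, Inhba and Ptgs2 and the highest for Nptx2. Expressed as log2 difference from the Scr mean, the median over the members was 0.15 in Ant-134 replicate 5 and 0.12 in Ant-134 replicate 4, and it lay between -0.046 and 0.077 in the other 7 libraries.

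**Figure D4:**
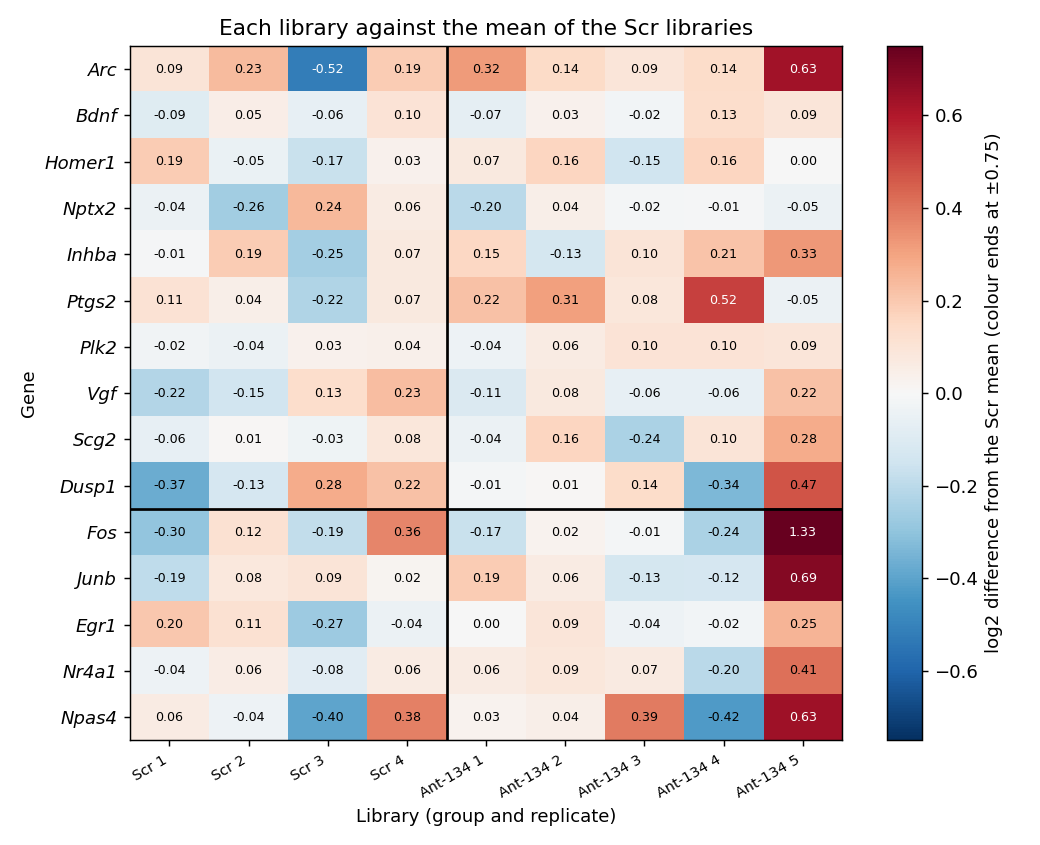
Log2 difference of each library (columns) from the mean of the Scr libraries for the 10 members (upper rows) and 5 activity-induced transcription factors (lower rows), red above and blue below 0. Ant-134 replicate 5 is red for all 5 transcription factors, up to 1.33 for Fos, and for 7 of the members.

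The transcription factors of the first wave served as a reference for recent activity. Fos was at 11.0, 12.6, 12.2, 10.5 and 31.0 CPM in Ant-134 and at 10.1, 13.4, 10.9 and 15.9 CPM in Scr, so that Ant-134 replicate 5 stood apart from the other 8 libraries. Fos had a log2 fold change of 0.30 (SE 0.37, exact permutation p = 0.802), and -0.12 without that library. Junb, another AP-1 subunit, was at 90.7 CPM in the same library and at 49.3 to 64.1 CPM in the others. Egr1, Npas4 and Nr4a1 were also highest in Ant-134 replicate 5, and their log2 fold changes were 0.051 (SE 0.093), 0.15 (SE 0.23) and 0.097 (SE 0.099), none of them called. Without Ant-134 replicate 5 these values were -0.0018, 0.011 and 0.0065, and that of Junb, 0.17 with all libraries, was 0.0013. Over all 18 activity transcription factors, the median log2 difference from the Scr mean was 0.27 in Ant-134 replicate 5 and between -0.093 and 0.076 in the other libraries. Without Ant-134 replicate 5, the median log2 fold change of the members was 0.037 and that of the transcription factors -0.0014. The part of this library's activity genes in the values of Arc, Scg2 and Dusp1 was not tested beyond leaving it out.

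Genes of the pathways around the members were counted in 9 lists, which hold 144 genes, 143 of them tested. Of these, 3 were called, 2.10% against the background of 4.18%, and 0 passed adjustment in edgeR. Dusp6, a cytoplasmic phosphatase of ERK and relative of Dusp1, rose from 52.5 ± 5.65 CPM (SD, n = 4) in Scr to 58.9 ± 2.42 CPM (SD, n = 5) in Ant-134, a log2 fold change of 0.16 (SE 0.064, exact permutation p = 0.0794). Rasl11b, a small GTPase, rose from 64.0 ± 2.63 to 69.5 ± 2.25 CPM, a log2 fold change of 0.12 (SE 0.044, exact permutation p = 0.0159), with all Ant-134 libraries above all Scr libraries. Nr4a2, a nuclear receptor induced by activity, fell from 55.5 ± 5.38 to 49.9 ± 1.47 CPM, a log2 fold change of -0.15 (SE 0.060, exact permutation p = 0.0317). Without Scr replicate 3 none of the 143 genes was called, with log2 fold changes of 0.12 for Dusp6, 0.091 for Rasl11b and -0.094 for Nr4a2, and the count was 7 without Ant-134 replicate 4 or replicate 5. Leaving out each library in turn, Rasl11b was called in 8 of 9 fits, Dusp6 in 7, not without Scr replicate 4 (0.13), and Nr4a2 in 6, not without Ant-134 replicate 1 (-0.14) or Scr replicate 4 (-0.13).

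As background for the lists, 51.2% of all genes tested had a log2 fold change above 0, 1.49% were called higher and 2.69% lower. Among the activity-induced genes, 14 of 18 transcription factors had a log2 fold change above 0 (median 0.059, 1 called lower), as did 16 of 25 other induced genes (median 0.050, 2 called higher). Without Ant-134 replicate 5 both medians were below 0, at -0.0014 and -0.0026, and without single Scr libraries they were as low as 0.021 (replicate 3) and 0.0030 (replicate 1). Of the 25 genes that carry the activity signal to the nucleus, 17 were above 0 with a median of 0.037 (0.0093 without Ant-134 replicate 3) and none was called, and the smallest p was that of the kinase gene Camk2b (log2 fold change 0.093, SE 0.045). Neuronal markers, 8 of 9 of which were above 0, had a median of 0.068, and 1 of them, Snap25, was called higher. Markers of single neuron types were above 0 for 7 of 9 genes of dentate granule cells (median 0.080, with Dsp called higher), 4 of 6 of CA1 (0.11) and 6 of 8 of CA3 pyramidal cells (0.053), and 7 of 8 of interneurons (0.046), beside the members' median of 0.057. The summed level of the general neuronal markers was 6444 to 7145 CPM in Ant-134 and 6445 to 6737 CPM in Scr, and the part of these lists in the members' values was not tested.

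Receptors and partners of the members' products gave no call in their 6 lists. In the postsynaptic list, which includes glutamate receptors, Shank scaffolds and pentraxins, 18 of 22 genes were above 0 with a median of 0.029 (0.011 without Scr replicate 3 and 0.050 without Scr replicate 4), and Gria1, which encodes an AMPA receptor subunit, had the smallest p (log2 fold change 0.089, SE 0.049). Nptx1 and Nptxr, which assemble with Nptx2, had log2 fold changes of 0.036 (SE 0.069) and 0.065 (SE 0.044), and that of Nptx1 was -0.018 without Scr replicate 3, while Nptxr was called higher without Ant-134 replicate 3, at 0.092. For Bdnf, the receptor gene Ntrk2 stood at 534 ± 25.4 CPM (SD, n = 5) in Ant-134 and 541 ± 29.2 CPM (SD, n = 4) in Scr, a log2 fold change of -0.019 (SE 0.049). The neurotrophin list had 2 of 6 tested genes above 0, with the smallest p for the sorting receptor gene Sorl1 (0.084, SE 0.063), and Plg did not pass the filter. In the secretory granule list 9 of 11 genes were above 0 with a median of 0.047 (0.023 without Ant-134 replicate 3 and 0.078 without Scr replicate 4), including Chgb at 0.099 (SE 0.070), and Cadps2, which primes dense-core vesicles, had the smallest p (0.11, SE 0.064). The value of Chgb was 0.047 without Ant-134 replicate 3, and Chgb was called higher without Ant-134 replicate 5, at 0.15.

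In the activin list 6 of 14 genes were above 0, and Fst, which encodes the activin-binding protein follistatin, had the smallest p. Its mean was 2.01 ± 0.451 CPM (SD, n = 5) in Ant-134 and 1.61 ± 0.400 CPM (SD, n = 4) in Scr, which gave 0.31 on the log2 scale (SE 0.21). The MAP kinase list had 5 of 11 above 0, with the smallest p for Mapk10 at 0.087 (SE 0.048). The prostaglandin list had 2 of 11 genes above 0 and a median of -0.15, which was -0.045 without Scr replicate 4 and -0.053 without Scr replicate 3. Its smallest p was that of Ptgs1, the constitutive counterpart of Ptgs2, with 10.3 ± 0.788 CPM (SD, n = 5) in Ant-134 and 11.4 ± 0.480 CPM (SD, n = 4) in Scr, a log2 fold change of -0.15 (SE 0.082). Without Ant-134 replicate 1 it was called lower, at -0.20. Of all genes tested, 2.69% were called lower and 51.2% had a log2 fold change above 0. In brain Ptgs1 is a gene of microglia, and 9 of 9 microglial markers were below 0 with 6 of them called lower. The summed level of these markers was 388 to 422 CPM in Ant-134 and 440 to 501 CPM in Scr, and their part in the value of Ptgs1 was not tested. Meningeal fibroblast markers were below 0 for 7 of 7 genes, 5 of them called lower, at 95.6 to 174 against 148 to 198 CPM in sum. Hemoglobin and other blood markers, which summed to 69.0 to 403 CPM in Ant-134 and 44.0 to 91.7 CPM in Scr, were above 0 for 5 of 5 genes, none called.

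Which genes followed the same pattern over the libraries was examined among 13857 tested genes outside the lists with a mean of at least 1 FPKM. Over the 9 libraries, the mean standardized level of the 10 members was most like that of Zfp189 (Pearson r = 0.959, Spearman rho = 0.95), Xk (0.952 and 0.867), Fam43b (0.940 and 0.733), Necap1 (0.934 and 0.833) and Klhl13 (0.921 and 0.8). These values are the highest of many and are a description only. Leaving out Ant-134 replicates 5 and 4, the libraries farthest from the median, gave r between 0.812 for Klhl13 and 0.952 for Zfp189, and none of the 5 genes was called. Among the members themselves, Bdnf and Scg2 followed the mean of the other 9 most closely (r = 0.741 and 0.705 over the 9 libraries), and the lowest values were those of Dusp1 (0.151), Ptgs2 (0.149), Homer1 (0.110) and Nptx2 (-0.080).

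The promoters of the members were searched for CRE, the element TGACGTCA that binds CREB, in windows from 250 bases before to 50 bases after each RefSeq start (GRCm38.p6). Windows of 7 members were found, 14 in all because Bdnf and Homer1 have several starts, and Arc, Vgf and Nptx2 were not matched. On either strand, CRE was in 3 of the 7 members, Scg2, Plk2 and Dusp1, which is 3 of their 14 windows against 1.79% of all 32851 windows (2.03% of the 27025 genes with a window). The CRE core TGACG or CGTCA, which also lies within CRE, was in 6 of 7 members, but in 6 of their 14 windows against 20.8% of all windows (23.0% of genes). The AP-1 sites TGACTCA and TGAGTCA were in 0 of 14 (5.20% of all windows), and so was the CArG box bound by SRF (1.63%), which says only that these letters are not in these windows. The stretches with CRE, and for comparison that of Homer1 with 2 of the 3 cores in its window, are shown 5′ to 3′ on the strand of the gene with the motif in capitals.
Scg2, chr1:79440076-79440105, minus strand: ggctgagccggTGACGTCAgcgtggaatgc
Plk2, chr13:110394971-110395000, plus strand: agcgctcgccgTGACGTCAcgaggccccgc
Dusp1, chr17:26508597-26508626, minus strand: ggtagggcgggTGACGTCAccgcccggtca
Homer1, chr13:93303695-93303724, plus strand: acaagcTGACGtgagcggagggTGACGtat
CRE begins 68 bases before the start in Scg2, 62 in Plk2 and 143 in Dusp1, and the cores of Homer1 begin 56, 40 and 14 bases before it, the last of them outside the stretch shown. The 3 members with CRE had log2 fold changes of 0.061, 0.063 and 0.053.

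Since Ant-134 is directed at miR-134, the mRNAs were also searched for its seed match. The mature miRNA and its seed, bases 2 to 8 in capitals, are given from RefSeq.
mmu-miR-134-5p, chr12:109734145-109734166, plus strand: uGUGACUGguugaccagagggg
Sites were matches of the longest annotated 3′ UTR of a gene (GRCm38) to either 7-base form, CAGTCAC or AGTCACA. Such sites were found in 1 of 10 members, Dusp1, and in 19.5% of the 15267 tested genes with an annotated 3′ UTR. The site of Dusp1 begins 163 bases after the stop codon and holds both matches, in capitals here.
Dusp1 3′ UTR, chr17:26506099-26506128, minus strand: gagttcctaagCAGTCACAacaatgacttg
Dusp1, the member with the site, had a log2 fold change of 0.053 with an interval from -0.35 to 0.45.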

How the data were processed

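RNA-seq libraries of 9 hippocampi, 5 Ant-134 and 4 Scr, were grouped by their sample labels. The authors aligned clean reads to GRCm38 (mm10) with HISAT2 2.0.5, counted them per gene with featureCounts 1.5.0-p3 and deposited the counts without normalization, and they also deposited FPKM values, which are scaled to gene length and library total. CASAVA 1.8 is named in the submitters' processing notes. The annotation release and the strand setting of the counting are not given in the sources used here.

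Counts were analysed in R 4.3.3 with edgeR 4.0.16 (filterByExpr with a minimum count of 10, TMM, robust quasi-likelihood fit and test, two-sided, no covariate), and Benjamini-Hochberg adjustment covered all 19782 genes tested. Standard errors were computed from the F statistic. The script was tested on simulated data. Each library is 1 mouse, so p-values weigh the difference between the groups against the spread between mice. In each library 3 counts equal 0.0709 to 0.107 CPM, a floor for counting error only. No pair of libraries within a group agreed within counting noise (chi-square per gene 8.30 to 21.1).

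The 10 members and all lists were chosen with earlier results of these data known. Named are the members, in each list the called genes or else the gene with the smallest p, Fos, Egr1, Npas4, Nr4a1 and Junb, the relatives or receptors Ntrk2, Nptx1, Nptxr, Ptgs1, Chgb and Dusp6, and the 5 genes most like the members' mean. Snap25 and Dsp among the markers and the genes overlapping members were named after their values were seen. The markers were lists for 13 cell types or regions. Alternatives were DESeq2 1.42.0 without a filter, its size factors in edgeR, edgeR without a filter or with a stricter one (10 counts in each library), without robust estimation or with the replicate number as a block, limma 3.58.1 with pseudocounts of 1 and 0.1 on log2 FPKM, which understates changes of low genes, and leaving out each library in turn. Exact permutation tests used log2 CPM. Promoters and the miRNA were read from RefSeq tables of GRCm38.p6, and 3′ UTRs and overlaps from GENCODE annotation of GRCm38.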

Additional observations from a re-analysis of the deposited data

Results flagged for a closer look

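Among 60 sets of values (the members and the other named genes in each group), 2 held a library far from the rest by Dixon's criterion, where chance gives about 3, and none of the 20 sets of the members did. Fos in Ant-134 replicate 5 was at 30.972 CPM, against 10.5 to 12.6 CPM in the other 4 Ant-134 libraries. Gria1 in Scr replicate 3 was at 741.175 CPM, against 821 to 834 CPM in the other 3 Scr libraries.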

How the results depend on the processing

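Of 170 values of the members under 17 alternatives, 151 kept their direction and their side of the threshold, 7 moved past it, all of them Ptgs2, and 12 changed sign. Ptgs2 was the 1 member called with DESeq2, DESeq2's size factors, no filter and the replicate block (log2 fold changes 0.23, 0.23, 0.22 and 0.28). Leaving out each library gave 0 to 1 members called, 6 to 9 above 0, and 0 with an adjusted p below 0.05. The 827 genes called were 1775 with no filter, where the 294 higher were 564 and the 533 lower 1211, while limma gave 462 and 475 higher genes. Leave-one-out fits gave 194 (without Scr replicate 3) to 386 higher genes. Genes past adjustment, 0 in edgeR, were 16 with DESeq2, 14 with no filter, 2 with the block, and 0 to 17 (without Ant-134 replicate 1) in leave-one-out fits. List genes called, 3 in all, were 6 with DESeq2, 5 with its size factors, 5 with no filter, 10 with the block, and 0 to 7 in leave-one-out fits. The cause of these changes was not tested.

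Same-numbered libraries did not deviate together (r -0.114 to 0.0029, none best with its own number), so the numbers do not pair the mice, and the block fit in effect leaves out Ant-134 replicate 5, which has no Scr partner. With the block, log2 fold changes were -0.038 for Vgf, -0.0048 for Scg2, -0.050 for Dusp1, -0.10 for Fos and -0.0010 for Junb. Leave-one-out ranges that crossed 0 were -0.0020 to 0.067 for Bdnf, -0.0057 to 0.11 for Homer1, -0.14 to 0.032 for Nptx2, -0.066 to 0.090 for Vgf, -0.064 to 0.15 for Dusp1, -0.12 to 0.43 for Fos, -0.032 to 0.12 for Egr1, -0.048 to 0.0015 for Ntrk2 and -0.018 to 0.068 for Nptx1. Ranges on 1 side of 0 were 0.11 to 0.33 for Arc, 0.050 to 0.19 for Inhba, 0.049 to 0.088 for Plk2, 0.0019 to 0.13 for Scg2, 0.011 to 0.29 for Npas4, 0.0065 to 0.16 for Nr4a1, 0.0013 to 0.23 for Junb and 0.047 to 0.15 for Chgb, which the block fit also called, at 0.15. The median of the members ranged from 0.037 to 0.090, that of the transcription factors from -0.0014 to 0.091 and that of the prostaglandin list from -0.15 to -0.045. Totals per library set the counting error, and no test at a lower depth was run.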
